A study of Sus scrofa with 6 samples.

Results

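The genes of the circadian clock were examined in back muscle of pigs with a UCP1 gene knocked in (UCP1 KI) and of wild-type (WT) pigs. The members were chosen by name, as the 10 genes *BMAL1*, *CLOCK*, *PER1*, *PER2*, *PER3*, *CRY1*, *CRY2*, *NR1D1*, *NR1D2* and *DBP*, out of 30476 pig genes in the count table. An identifier was found for 9 of the 10 in the table of pig gene names, and these 9 also passed the filter on low counts. *PER3* had no identifier there and was not analysed here. Messenger RNA from a muscle of the back, the longissimus dorsi, was sequenced at 6 months of age in 3 UCP1 KI and 3 WT pigs, each as 1 library. The UCP1 KI pigs carry a UCP1 gene inserted with CRISPR/Cas9 that is meant to be specific to adipocytes, whereas WT pigs lack this insertion. The labels number the pigs as replicates without naming animals, and p values measure the spread between these samples. The sources used here give no sex, litter, feeding state or hour of sampling for any pig. Differences in sampling hour between the groups and the genotype therefore cannot be told apart.

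In mammals the clock is a loop of transcription and repression that runs in nearly every cell, muscle fibres included. BMAL1 and CLOCK bind DNA as a pair and switch on the *PER* and *CRY* genes, and the PER and CRY proteins later return to the nucleus and inhibit that pair. A further loop is formed by NR1D1 and NR1D2, nuclear receptors that repress *BMAL1*, and DBP carries the rhythm to output genes. Over a day *BMAL1* messenger RNA peaks at about the opposite time to that of *NR1D1* and *DBP*, with the *PER* genes after the latter and *CRY1* later still. In muscle the clock is known for daily rhythms in fuel use, and it can be reset by feeding, activity, temperature and glucocorticoids.

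The 6 libraries held between 30220951 and 35066624 counts on genes. Scaling factors (edgeR's TMM method) were lowest in WT replicate 2 (0.781) and highest in UCP1 KI replicate 2 (1.18), and the 20 most abundant genes held 56.5% of the counts in WT replicate 2 against 39.0% to 44.8% in the other pigs. The 6 of 11 muscle fibre markers found summed to between 58399 and 99988 CPM (counts relative to the total of each library after these factors). Within that list *PVALB* was at 0.336 CPM in UCP1 KI replicate 2, against 59.5 to 272 CPM in the other pigs. *TNNT3* was also lowest in that pig, at 4141 CPM against 11928 to 27917 CPM, whereas *DES* was highest in it (9106 CPM). Fibroblast markers (4 of 4 found) summed to between 158 and 223 CPM in UCP1 KI pigs and between 379 and 591 CPM in WT pigs, and red blood cell markers (3 of 3 found) to between 11.4 and 76.0 CPM and between 104 and 180 CPM. Among the fibroblast markers *COL1A1* and *COL1A2* were lower past the limits given in the next paragraph, while *PDGFRA* (log2 fold change -0.08) and *DCN* (-0.39) overlapped and did not pass. Adipocyte, endothelial, leukocyte and Schwann cell markers overlapped between the groups in their sums, though the leukocyte sum was mostly *CD79A*. *CD3E* was higher in UCP1 KI pigs past the same limits (1.84), but overlapped. It was at 2.91, 7.04 and 1.03 CPM in UCP1 KI pigs and at 1.27, 0.62 and 1.17 CPM in WT pigs. In these whole-tissue libraries, fewer cells of a type and less RNA per cell cannot be told apart.

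Of the 9 clock genes tested, *PER2* and *CRY1* were lower in UCP1 KI pigs and 0 were higher, where both limits were met, a p under 0.05 before adjustment in edgeR's quasi-likelihood test and a log2 fold change beyond 0.5 in either direction. The other 7 genes did not pass these limits. *CRY1* fell about 1.95-fold and *PER2* about 2.16-fold. Among all 13402 genes tested, 8.19% passed both limits, 4.34% as lower in UCP1 KI pigs (582 genes) and 3.84% as higher (515 genes). With library size only the split was 195 lower and 929 higher. The median log2 fold change of the 9 genes was 0.23, beside -0.02 over all genes tested, and 6 of the 9 had a value above 0. With p values adjusted over all genes (Benjamini-Hochberg), 0 clock genes had an adjusted p under 0.05 in edgeR, where 2 had an unadjusted p under 0.05. DESeq2 on the same genes also gave 0, with 0.0966 for *CRY1* as its smallest adjusted p. Across all settings tried, the smallest adjusted p among the clock genes ranged from 0.0966 to 0.930.

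**Figure D1:**
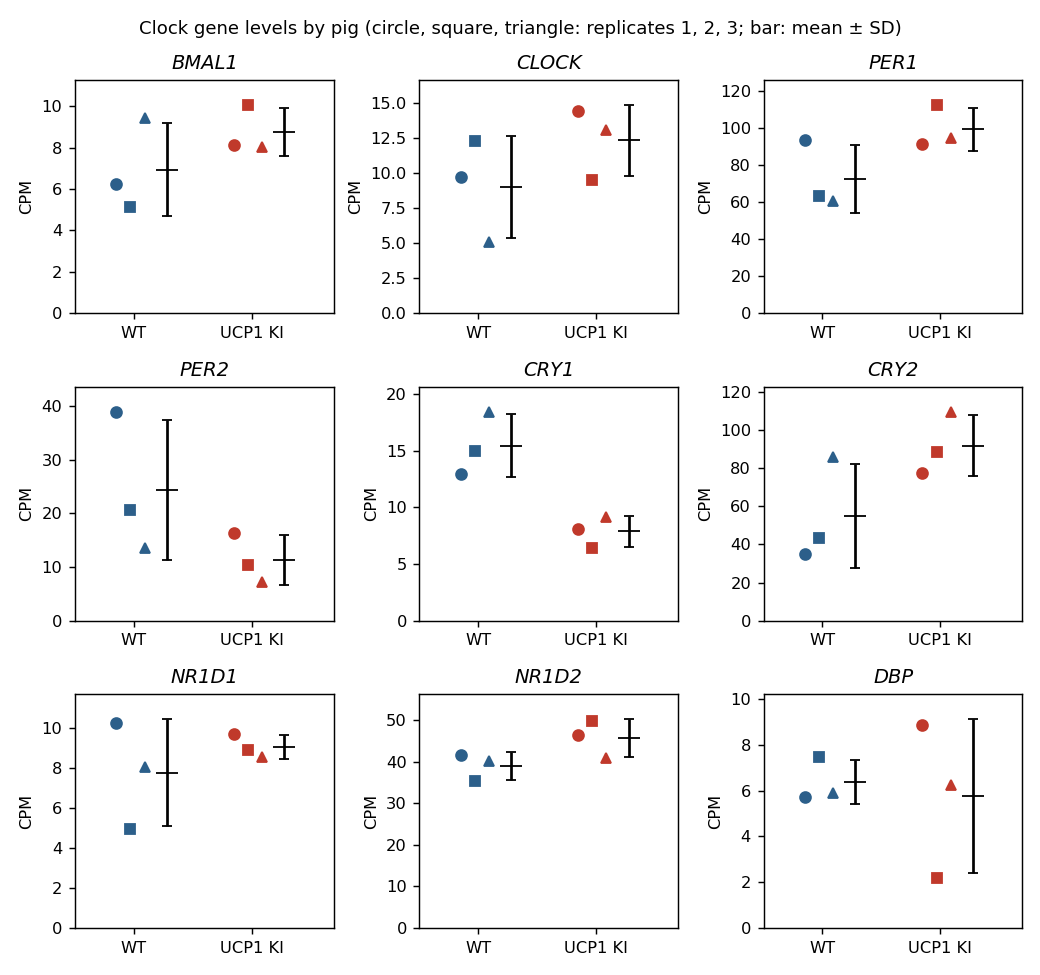
Levels of the 9 clock genes in CPM (vertical axis, from 0) in WT pigs (blue) and UCP1 KI pigs (red), with 1 point per pig and the mean ± SD (n = 3) beside each group. *CRY1* is the gene in which every UCP1 KI pig (6.45 to 9.19 CPM) lies below every WT pig (12.9 to 18.4 CPM).

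*CRY1* (ENSSSCG00000000164) encodes a cryptochrome, one of the proteins that inhibit BMAL1 and CLOCK. RefSeq places the gene on chromosome 5 of the assembly Sscrofa11.1, from 13275265 to 13429566. It was counted 249, 230 and 347 times in UCP1 KI replicates 1 to 3 and 469, 410 and 552 times in WT replicates 1 to 3. These counts correspond to 8.05, 6.45 and 9.19 CPM in UCP1 KI pigs and to 12.9, 14.97 and 18.4 CPM in WT pigs. The groups did not overlap, which was the case as lower in UCP1 KI pigs for 7.69% of all genes tested. *CRY1* averaged 7.89 ± 1.38 CPM (SD, n = 3) with the knock-in against 15.4 ± 2.78 CPM (SD, n = 3) without it. Its log2 fold change of -0.97 (standard error 0.26, 95% interval -1.58 to -0.36) had an unadjusted p of 0.00661 and an adjusted p of 0.583 from edgeR. A two-sided exact permutation test gave p = 0.1, the smallest that 3 pigs against 3 allow. With each pig left out in turn the log2 fold change lay between -1.09 and -0.82, and *CRY1* passed both limits in all 6 of these fits. With library size only, without scaling factors, it was -0.70 and no longer passed (unadjusted p = 0.0597). That setting moved the median of all genes from -0.02 to 0.24, and relative to the median *CRY1* lay at -0.94 with it. The RefSeq span of *CRY1* also holds *MTERF2* and *TMEM263*, whose reads could be split from those of *CRY1* in a way that the sources used here do not state, and 2 pseudogenes that were not analysed here. *MTERF2* was at 4.46, 4.15 and 10.5 CPM in UCP1 KI pigs and at 9.28, 8.51 and 10.9 CPM in WT pigs, with overlap. *TMEM263*, which shares 17923 bases with the span against 2399 for *MTERF2*, was at 19.7, 22.7 and 19.3 CPM in UCP1 KI pigs and at 20.1, 20.3 and 23.5 CPM in WT pigs, also with overlap. The part of shared reads in the level of *CRY1* was not tested.

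*PER2* (ENSSSCG00000016338; chromosome 15, 137793419 to 137837854) encodes a PER protein that acts in the same inhibitory complex. Its level was 16.3, 10.4 and 7.20 CPM in UCP1 KI replicates 1 to 3 and 38.9, 20.7 and 13.6 CPM in WT replicates 1 to 3, from counts of 272 to 1413. The groups overlapped, since UCP1 KI replicate 1 was above WT replicate 3, and WT replicate 1 stood well above all other pigs. *PER2* averaged 11.3 ± 4.61 CPM (SD, n = 3) with the knock-in against 24.4 ± 13.1 CPM (SD, n = 3) without it. Its log2 fold change of -1.11 (standard error 0.46, 95% interval -2.17 to -0.05) had an unadjusted p of 0.0417 and an adjusted p of 0.603 from edgeR. The two-sided exact permutation test gave p = 0.2. Of the UCP1 KI pigs, leaving out replicate 2 (-1.06) or replicate 3 (-0.88) ended the call, and of the WT pigs replicate 1 (-0.60) or replicate 2 (-1.22). *PER2* did not pass with library size only either, at -0.96, which lay at -1.20 relative to the median of all genes. The value stayed below 0 at every setting tried.

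The other members of the inhibitory arm had higher means in UCP1 KI pigs and did not pass the limits. *CRY2* (ENSSSCG00000013270; chromosome 2, 16587101 to 16620380), the second cryptochrome, was at 77.6, 88.6 and 109 CPM in UCP1 KI pigs and at 34.9, 43.5 and 86.1 CPM in WT pigs. WT replicate 3 was level with the UCP1 KI pigs, and the other WT pigs were below all of them. *CRY2* had a log2 fold change of 0.75 (standard error 0.37, 95% interval -0.11 to 1.60, unadjusted p = 0.0787 and adjusted p = 0.634 from edgeR). Both limits were passed when WT replicate 3 was left out (1.23) and with library size only (1.03), where *CRY2* lay 0.79 above the median of all genes. *PER1* (ENSSSCG00000017983; chromosome 12, 53361863 to 53376723), which is also induced by glucocorticoids, was at 91.0, 112 and 94.2 CPM in UCP1 KI pigs. In WT pigs it was at 93.4, 63.3 and 60.7 CPM, so that WT replicate 1 lay among the UCP1 KI pigs. *PER1* had a log2 fold change of 0.45 (standard error 0.26, 95% interval -0.14 to 1.05, unadjusted p = 0.117 and adjusted p = 0.668 from edgeR), and it passed when WT replicate 1 was left out (0.67).

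The activators *BMAL1* and *CLOCK* did not pass the limits. *BMAL1* (ENSSSCG00000013397; chromosome 2, 45895637 to 46025174) was at 8.11, 10.1 and 8.02 CPM in UCP1 KI pigs and at 6.25, 5.11 and 9.44 CPM in WT pigs. The UCP1 KI pigs lay close together, and WT replicate 3 was within their range. Its log2 fold change was 0.33 (standard error 0.30), with a 95% interval from -0.37 to 1.03 and an adjusted p of 0.778 from edgeR. *CLOCK* (ENSSSCG00000008909; chromosome 8, 54793323 to 54910192) was at 14.4, 9.50 and 13.1 CPM in UCP1 KI pigs and at 9.72, 12.3 and 5.07 CPM in WT pigs. The lowest pig was WT replicate 3, which was second highest for *BMAL1*, so that the 2 partners did not rank the pigs alike. For *CLOCK* the log2 fold change was 0.45 (standard error 0.36), with a 95% interval from -0.39 to 1.29 and an adjusted p of 0.757. With each pig left out, *BMAL1* lay between 0.15 (WT replicate 2 left out) and 0.62 (WT replicate 3 left out) and *CLOCK* between 0.17 (WT replicate 3 left out) and 0.74 (WT replicate 2 left out), and neither passed. One end of the RefSeq span of *CLOCK* overlaps that of *TMEM165* by 3030 bases.

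*NR1D1* (ENSSSCG00000036933; chromosome 12, 22263549 to 22274131), the receptor that represses *BMAL1*, was at 9.70, 8.91 and 8.55 CPM in UCP1 KI pigs and at 10.3, 4.96 and 8.07 CPM in WT pigs. WT pigs held both the highest and the lowest value, and UCP1 KI pigs lay between them. Its log2 fold change of 0.22 (standard error 0.31, 95% interval -0.50 to 0.94, adjusted p = 0.863 from edgeR) was -0.02 without WT replicate 2. The RefSeq span of *NR1D1* overlaps that of *THRA*, a thyroid hormone receptor gene, by 3626 bases, and the sources used here do not say whether counting used strand. *THRA* was at 43.8, 56.1 and 36.0 CPM in UCP1 KI pigs and at 39.6, 14.6 and 38.9 CPM in WT pigs, with WT replicate 2 the lowest for both genes. The part of shared reads in the level of *NR1D1* was not tested. *NR1D2* (ENSSSCG00000027017; chromosome 13, 10756954 to 10791219), its paralogue, was the steadiest member, at 46.5, 49.7 and 40.8 CPM in UCP1 KI pigs and 41.5, 35.2 and 40.1 CPM in WT pigs. Its highest pig was 1.41-fold above its lowest, and the log2 fold change was 0.23 (standard error 0.21, 95% interval -0.26 to 0.72, adjusted p = 0.779 from edgeR).

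*DBP* (ENSSSCG00000003148; chromosome 6, 53986955 to 53993044), the output factor, was at 8.86, 2.19 and 6.22 CPM in UCP1 KI pigs and at 5.73, 7.48 and 5.90 CPM in WT pigs. UCP1 KI replicates 1 and 2 were the highest and the lowest of the 6 pigs, a 4.05-fold difference inside 1 group. Its log2 fold change of -0.15 (standard error 0.47, 95% interval -1.25 to 0.96, adjusted p = 0.941 from edgeR) turned to 0.24 without UCP1 KI replicate 2 and to 0.07 with library size only. UCP1 KI replicate 2, the lowest pig for *DBP*, was the highest for *BMAL1*, *PER1* and *NR1D2*.

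**Figure D2:**
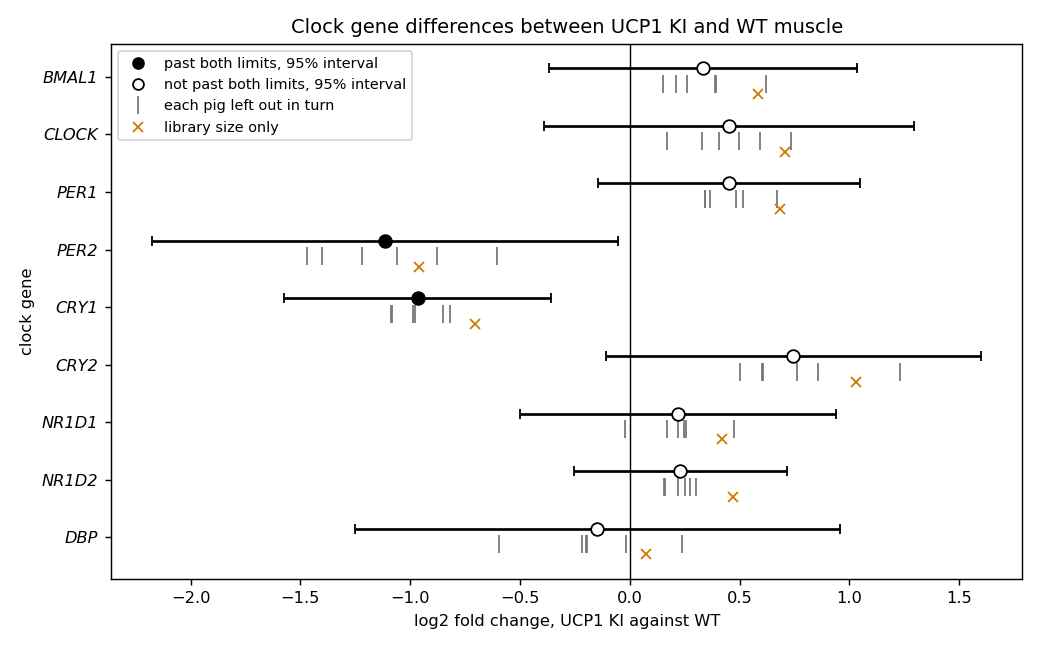
Log2 fold change of each clock gene, UCP1 KI against WT (horizontal axis), with the 95% interval of edgeR's test, the fits without each pig (grey marks) and the fit with library size only (orange crosses). The intervals of *CRY1* (-1.58 to -0.36) and *PER2* (-2.17 to -0.05) lie below 0, and those of the other 7 genes span 0.

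The clock genes differed in how much they varied between pigs of 1 group. The within-group SD of log2(CPM + 1), pooled over both groups, was 0.64 for *PER2*, 0.61 for *DBP*, 0.50 for *CRY2* and 0.46 for *CLOCK*. It was 0.34 for *NR1D1*, 0.30 for *BMAL1*, 0.26 for *PER1*, 0.23 for *CRY1* and 0.13 for *NR1D2*, beside a median of 0.33 over all genes tested. *PER2* varied more than 86.7% of all genes tested and *NR1D2* more than 4.89%. Over the 6 pigs the highest value exceeded the lowest by 1.97-fold for *BMAL1* and by 2.07-fold for *NR1D1*, by 4.05-fold for *DBP* and by 5.41-fold for *PER2*.

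The order of the pigs differed between members. Since the members peak at different hours, these orders cannot show whether the pigs differed in clock phase. UCP1 KI replicate 2 was highest for 3 of the 9 genes and lowest for 2, and WT replicate 2 was highest for 0 and lowest for 3. Each gene was centred on its mean over the 6 pigs, and the pigs in which 2 genes lay on the same side of their means were counted for all 36 pairs of members. *BMAL1* and *CRY2* lay on the same side in 6 of 6 pigs, and so did *PER1* and *NR1D1*. *BMAL1* and *NR1D1* did so in 4 of 6 pigs, and *BMAL1* and *DBP* in 3 of 6. In 25 of the 36 pairs the count was 3 or 4, and 0 pairs lay on opposite sides in all pigs. *CRY1* shared its side with *BMAL1*, *PER1*, *CRY2*, *NR1D1* and *NR1D2* in 1 of 6 pigs each, where the difference between the groups enters the count. These counts are a description, since the genes of a pig share 1 library and 1 scaling factor.

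**Figure D3:**
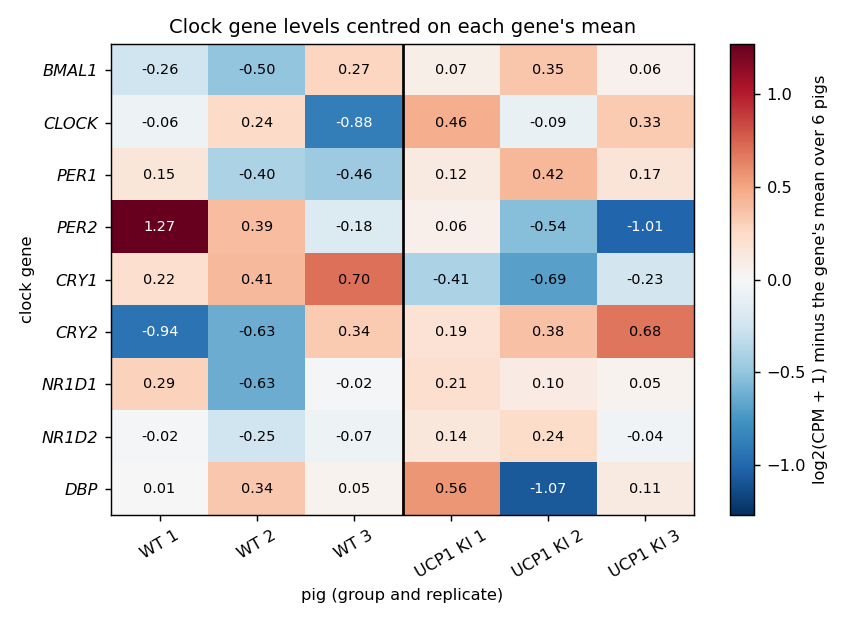
Level of each clock gene in each pig as log2(CPM + 1) minus the mean of that gene over the 6 pigs (colour and printed value), with WT pigs left and UCP1 KI pigs right of the line. *CRY1* is the row with 1 sign in each group, and *PER2* has its highest value in WT replicate 1 (1.27) and its lowest in UCP1 KI replicate 3 (-1.01).

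Ratios of the counts of 2 members within a library do not depend on the scaling between libraries. The 10 pairs compared were chosen with earlier results of these data known, so they are given without a test, and a ratio is compared between pigs only. The log2 ratio of *NR1D1* to *BMAL1* was 0.26, -0.17 and 0.09 in UCP1 KI replicates 1 to 3 and 0.71, -0.04 and -0.22 in WT replicates 1 to 3. It averaged 0.06 ± 0.22 (SD, n = 3) with the knock-in against 0.15 ± 0.50 (SD, n = 3) without it, and the groups overlapped. The log2 ratio of *DBP* to *BMAL1* also overlapped, and ranged over 2.74 between pigs, with UCP1 KI replicate 2 at -2.19. In contrast, the log2 ratio of *CRY1* to *BMAL1* averaged -0.15 ± 0.43 (SD, n = 3) with the knock-in against 1.18 ± 0.32 (SD, n = 3) without it, and the groups did not overlap. The log2 ratio of *PER1* to *PER2* was 2.48, 3.43 and 3.70 in UCP1 KI pigs against 1.26, 1.61 and 2.15 in WT pigs, again without overlap. That of *NR1D1* to *CRY1* averaged 0.21 ± 0.29 (SD, n = 3) with the knock-in against -1.03 ± 0.64 (SD, n = 3) without it, also apart. The log2 ratio of *PER2* to *CRY1*, the 2 genes past the limits, overlapped between the groups, at 0.45 ± 0.71 (SD, n = 3) and 0.54 ± 1.01 (SD, n = 3), and so did that of *PER2* to *BMAL1*. Each of the 3 separated ratios holds *CRY1* or *PER2* and so is not separate evidence from their own values.

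**Figure D4:**
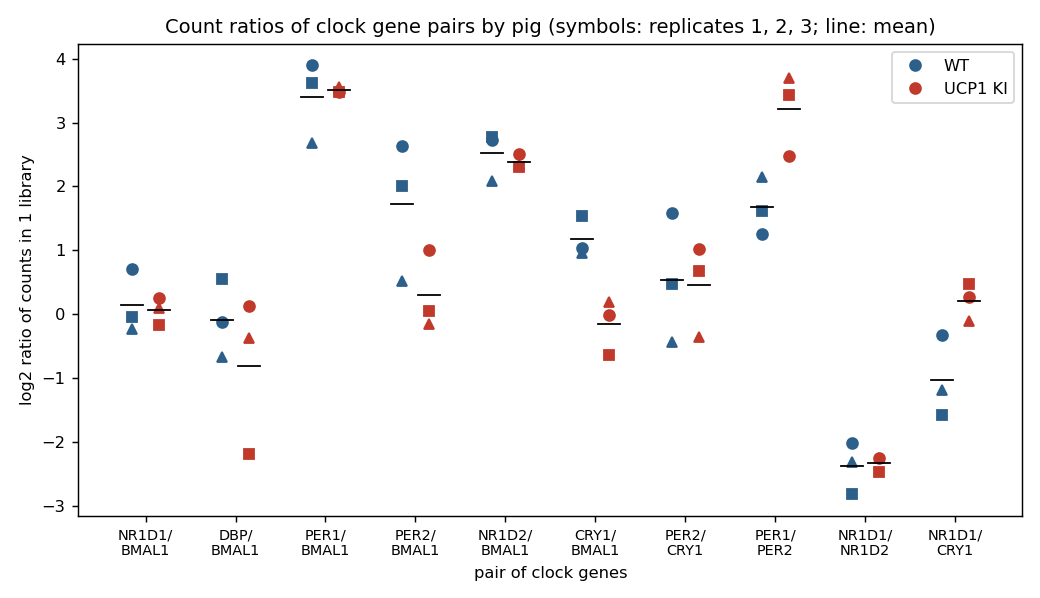
Log2 ratio of the counts of 2 clock genes in the same library (vertical axis) for 10 pairs, with 1 point per pig and a line at each group mean. *CRY1* to *BMAL1*, *PER1* to *PER2* and *NR1D1* to *CRY1* are separated between the groups and each holds *CRY1* or *PER2*, whereas the other 7 pairs overlap.

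Of 20 other genes of the clock loops, 18 could be tested, and 2 were higher and 0 lower in UCP1 KI pigs past both limits, where 8.19% of all genes passed in either direction. DESeq2 on the same genes gave 2 higher and 1 lower. The split was 0 higher and 1 lower without WT replicate 2, and 3 higher and 1 lower without WT replicate 1. The median log2 fold change of the 18 genes was -0.003, and the lowest value was that of *TIMELESS* (-1.74, standard error 0.79). That gene had between 4 and 48 counts, overlapped between the groups and did not pass in edgeR. *RORA*, a nuclear receptor that activates *BMAL1* at the sites where NR1D1 represses it, rose from 4.24, 4.16 and 5.17 CPM in WT pigs to 5.91, 10.5 and 6.54 CPM in UCP1 KI pigs. The groups did not overlap for *RORA*, as for 7.59% of all genes in this direction, and its log2 fold change was 0.76 (standard error 0.31, unadjusted p = 0.0407, adjusted p = 0.603, edgeR). It was 0.45 without UCP1 KI replicate 2, and the call also ended without WT replicate 1 (0.71) or WT replicate 2 (0.70). *GSK3B*, a kinase that phosphorylates clock proteins, was at 27.0, 54.2 and 32.7 CPM in UCP1 KI pigs and at 28.4, 15.004 and 15.8 CPM in WT pigs. Its value of 0.94 on the log2 scale (standard error 0.37, unadjusted p = 0.0353, adjusted p = 0.595, edgeR) did not pass when UCP1 KI replicate 2 was left out (0.58), nor when replicate 2 (0.78) or 3 (0.81) of the WT group was.

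*ARNTL2*, the paralogue of *BMAL1*, had between 6 and 35 counts and did not pass at -0.88 on the log2 scale (standard error 0.80). *NPAS2*, the paralogue of *CLOCK*, was at -0.01 on the log2 scale (standard error 0.41), which turned positive with library size only (0.19). *TEF* and *HLF*, the relatives of *DBP*, and *NFIL3*, which competes with them for the same DNA sites, had log2 fold changes of -0.07, 0.00 and -0.12, and edgeR gave adjusted p values of 0.980, 0.998 and 0.969. Those of *TEF* and *NFIL3* were 0.23 and 0.13 with library size only. *TEF* ranged from 2.81 CPM in UCP1 KI replicate 1 to 21.0 CPM in UCP1 KI replicate 3, whereas *DBP* was highest in UCP1 KI replicate 1. *BHLHE40* and *BHLHE41*, repressors that bind the DNA sites of BMAL1 and CLOCK, had log2 fold changes of 0.52 and 0.12, and *CIART*, a further repressor of BMAL1 and CLOCK, -0.24, which was 0.08 with library size only. None of these passed the limits, although *BHLHE40* did with library size only (0.77) and *CIART* when WT replicate 1 was left out (-0.59).

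Lists of genes that share inputs with the clock were read from the same fit. Of 12 clock output genes, 1 (8.33%, beside 8.19% of all genes) was higher and 0 lower past both limits, with a median log2 fold change of 0.08. The gene was *HK2*, a hexokinase of muscle, at 55.9, 59.9 and 12.3 CPM in UCP1 KI pigs and 15.8, 6.50 and 13.2 CPM in WT pigs, or 1.85 on the log2 scale (standard error 0.60, unadjusted p = 0.0162, adjusted p = 0.583, edgeR). It did not pass without UCP1 KI replicate 2 (1.53) or WT replicate 2 (1.55). The output list had 1 gene higher and 1 lower with DESeq2 on the same genes, and 1 higher and 2 lower without UCP1 KI replicate 1. Of 12 glucocorticoid response genes, 10 could be tested, and *CDKN1A* was higher and *DUSP1* and *SGK1* were lower in UCP1 KI pigs, with a median of 0.25 over the list, where 8.19% of all genes passed in either direction. *DUSP1*, a phosphatase of MAP kinases, was at 147, 181 and 158 CPM against 351, 471 and 305 CPM in WT pigs, without overlap as for 7.69% of all genes, or -1.21 on the log2 scale (standard error 0.27), and its adjusted p was 0.481 in edgeR but 0.00409 in DESeq2 on the same genes. *SGK1*, a kinase gene, overlapped between the groups, had a log2 fold change of -1.13 and lost its call when replicate 2 (-1.11) or 3 (-0.95) of the UCP1 KI group or replicate 1 (-0.55) or 2 (-1.22) of the WT group was left out, and with library size only (-0.96). *CDKN1A*, a cell cycle inhibitor, had a log2 fold change of 2.33 that was 1.22 without UCP1 KI replicate 3, at 1025 CPM, and passed both limits in each fit with a pig left out. Its adjusted p was 0.583 in edgeR but 0.0413 in DESeq2 on the same genes. The other 7 genes tested did not pass, at log2 fold changes of 0.63 for *FKBP5*, 0.71 for *ZBTB16*, 0.75 for *DDIT4*, 0.78 for *KLF9*, -0.56 for *ERRFI1*, -0.21 for *PDK4* and -0.14 for *KLF15*. With library size only the list had 3 genes higher and 1 lower, and without UCP1 KI replicate 3 it had 2 higher and 1 lower. The groups did not overlap for *ZBTB16*, as for 7.59% of all genes in this direction.

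Of 12 immediate early genes, which respond within minutes to stimuli such as handling or contraction, 4 were lower and 0 higher in UCP1 KI pigs, where 4.34% of all genes were lower, and their median log2 fold change was -0.48. Without UCP1 KI replicate 3 the split was 3 lower and 2 higher, and *JUNB* (0.70) and *ARC* (1.80) had values above 0 in the fit of all pigs, without passing. *FOSB* was at 16.2, 10.4 and 6.19 CPM in UCP1 KI pigs and at 41.3, 26.8 and 23.0 CPM in WT pigs, or -1.48 on the log2 scale (standard error 0.40). *NR4A1*, *IER2* and *EGR2* had log2 fold changes of -1.19, -1.04 and -1.34, and the groups did not overlap for *FOSB*, *NR4A1* and *IER2*, nor for *ATF3*, which did not pass (-0.96), as for 7.69% of all genes in this direction. *EGR2* overlapped, and its call ended without replicate 1 (-1.38) or 3 (-1.05) of the UCP1 KI group or replicate 1 (-1.27) or 2 (-1.02) of the WT group, and with library size only (-1.07). The unadjusted p values of the 4 genes lay between 0.00472 and 0.0267 and their adjusted p was 0.583 from edgeR. In DESeq2 on the same genes the adjusted p was 0.0374 for *NR4A1*, 0.0756 for *FOSB*, 0.130 for *IER2* and 0.283 for *EGR2*. Of 12 temperature response genes, 10 could be tested and 1, the co-chaperone gene *BAG3*, was higher, where 3.84% of all genes were, with a log2 fold change of 1.15 that did not pass without replicate 1 (0.93) or 2 (1.02) of the UCP1 KI group or replicate 1 (1.14) or 2 (1.01) of the WT group. Without UCP1 KI replicate 3 the temperature list had 3 genes higher and 1 lower. The median of that list over all pigs was 0.31, and *RBM3*, a cold-inducible RNA-binding protein gene, had a log2 fold change of -0.57 and overlapped. *CRY1* and *PER2* were lower in these libraries beside 4 of the 12 immediate early genes and the collagen genes among the fibroblast markers. The red blood cell markers had lower sums in UCP1 KI pigs without overlap, which was not tested, and 0 of the 3 passed the limits. These sums were mostly *HBB*, which was lowest in UCP1 KI replicate 2 (11.3 CPM). *HBB* and *AHSP* did not overlap between the groups, whereas *ALAS2* did. The part of stimuli at sampling or of other cell types in the levels of *CRY1* and *PER2* was not tested.

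**Figure D5:**
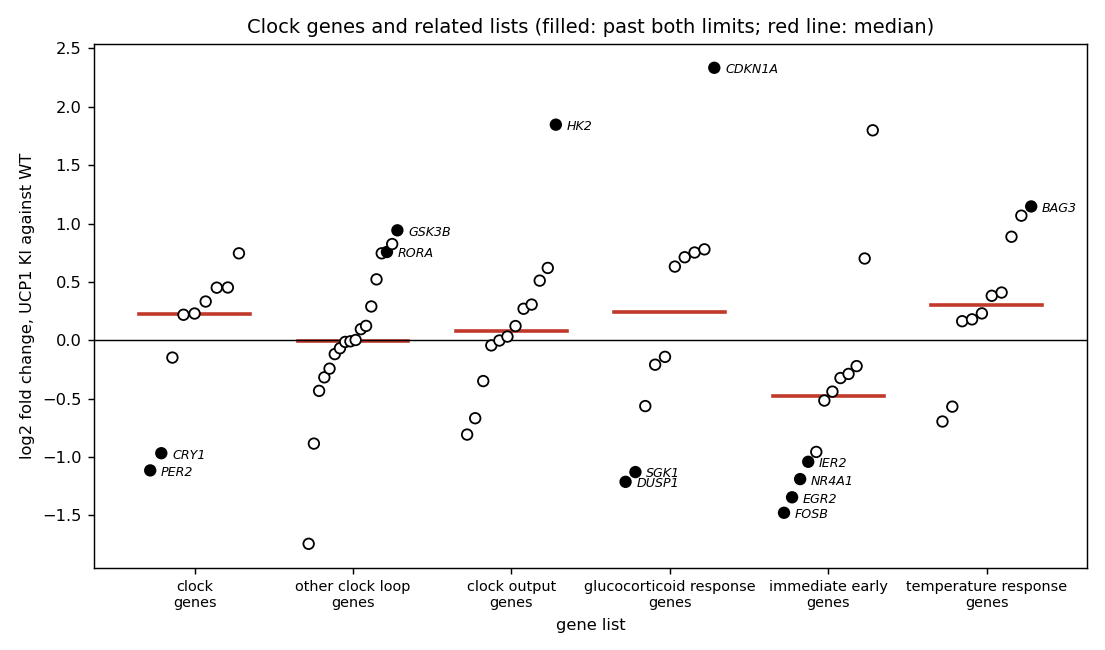
Log2 fold change, UCP1 KI against WT (vertical axis), of every tested gene of the clock list and of 5 related lists, with filled points past both limits and a red line at each median. The median is 0.23 for the clock genes and -0.48 for the immediate early genes, where 4 of 12 genes are lower past both limits.

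The genes whose levels followed those of *BMAL1* and *NR1D1* most closely were taken from 11294 tested genes with a symbol, by the mean absolute difference of centred log2(CPM + 1) over the 6 pigs. For *BMAL1* these were *RUNDC1*, *RBM15* and *PARD3*, at 0.044, 0.052 and 0.054, where *BMAL1* itself deviated from its mean by 0.25 on average. For *NR1D1*, which deviated by 0.22 on average, they were *ECI2*, *ST8SIA1* and *FAAH*, at 0.047, 0.061 and 0.064. *ST8SIA1* was below 1 CPM in all pigs and at 0 counts in WT replicate 2. None of the 6 genes belongs to the clock lists used here.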

How the data were processed

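Muscle RNA was sequenced from 3 UCP1 KI and 3 WT pigs. The authors trimmed reads with Trimmomatic 0.36, mapped them with HISAT2 2.0 to Sscrofa11.1, the build in the submitters' processing notes, and used StringTie 1.3.3b and DESeq2 1.12.4. They deposited raw counts per Ensembl gene, without normalization. The program that counted reads, its strand setting and the annotation release are not given in the sources used here. Here edgeR 4.0.16 in R 4.3.3 was fitted to these counts (filterByExpr, TMM factors, genotype as the only term, two-sided quasi-likelihood test), and 13402 of 20062 genes with any count were kept. The limits for a call, p under 0.05 and a log2 fold change beyond 0.5 either way, came from the study's methods. Those methods do not say whether p was adjusted, and the unadjusted p was used here. Benjamini-Hochberg adjustment ran over all genes tested. CPM uses TMM-scaled totals, and 3 counts correspond to 0.0794 to 0.110 CPM, for counting error only. Intervals are t intervals around the fitted value. Exact permutation tests used log2(CPM + 1) and all 20 assignments of pigs. DESeq2 1.42.0 was an alternative, with others given in the closing section. The fit was tested on simulated data.

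Symbols came from a table of pig gene names (14864 identifiers) and positions from RefSeq, by symbol. No sequence is printed. The members and lists were chosen with earlier results of these data known. Named by rule were all members, genes of other lists past both limits, a set of relatives and partners of members fixed by name, and the 3 genes nearest to *BMAL1* and to *NR1D1*. *ARNTL2*, *TIMELESS*, *ATF3*, *JUNB*, *ARC*, *RBM3*, *THRA*, *MTERF2*, *TMEM263*, the glucocorticoid response genes that did not pass and the single cell type markers given were named after their values were seen. The ratios within a library and the neighbours of *PER2* and *CRY1* were added after seeing the data. Some genes of the lists are not reported here.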

Additional observations from a re-analysis of the deposited data

How the results depend on the processing

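With 3 pigs a group, calls near the limits turned on single pigs, and 0 genes of any list, and 0 of all genes, passed both limits with adjusted p values from edgeR as fitted for the report, where 1100 of all genes had an unadjusted p under 0.05 and DESeq2 on the same genes gave 127 at an adjusted p under 0.05. The edgeR fits with all genes with any count and with library size only gave 1 gene each at that limit, in neither case a clock gene. With library size only, 1 clock gene and 2 temperature response genes passed, as *CRY2* took the place of *CRY1* and *PER2*. With all genes with any count, and with DESeq2 on the same genes, 2 clock output genes passed. With each pig left out, between 1 and 3 clock genes, 0 and 4 other clock loop genes, 0 and 3 clock output genes, 2 and 4 glucocorticoid response genes, 3 and 5 immediate early genes, 0 and 4 temperature response genes and between 678 (UCP1 KI replicate 2 left out) and 1541 (WT replicate 3 left out) of all genes passed, and 718 did without WT replicate 2. Deviations from the group means correlated at 0.0038, 0.094 and 0.283 for replicate numbers 1 to 3 over 13402 genes. The value for number 3 was the highest between any UCP1 KI and WT pig. In contrast, UCP1 KI replicate 1 correlated best with WT replicate 2 (0.129), and UCP1 KI replicate 2 with WT replicate 1 (0.101). With 3 pigs a group these correlations cannot decide whether the numbers pair the pigs. With the replicate block 3 clock genes passed, with *CRY2* (0.84) beside *CRY1* and *PER2*, and so did 0 other clock loop genes, 2 clock output genes and 1114 of all genes.

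Log2 fold changes that changed sign belonged to genes that did not pass. With library size only they were 0.072 for *DBP*, 0.19 for *NPAS2*, 0.13 for *NFIL3*, 0.23 for *TEF* and 0.082 for *CIART*. *NPAS2* was at 0.0086 with all genes with any count, 0.0020 with DESeq2 on those genes and 0.00074 with the replicate block, and *HLF* at -0.0049 with at least 10 counts in every pig, -0.0060 with median-of-ratios factors and -0.0059 with DESeq2 on the same genes. With each pig left out, values ranged from -0.020 to 0.47 for *NR1D1*, -0.59 to 0.24 for *DBP*, -0.22 to 0.39 for *NPAS2*, -0.092 to 0.23 for *BHLHE41*, -0.64 to 0.34 for *NFIL3*, -0.71 to 0.41 for *TEF*, -0.31 to 0.28 for *HLF* and -0.59 to 0.046 for *CIART*. The causes were not tested. Of the other alternatives, DESeq2 on the same genes, median-of-ratios factors and both filters kept *CRY1* and *PER2* past both limits.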

Other observations

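The rule of likeness was also applied to *PER2* and *CRY1*, after their values were seen. The gene nearest to *PER2* was *SGK1*, a kinase gene induced by glucocorticoids and osmotic stress, with a mean absolute difference of 0.12 in centred log2(CPM + 1), where *PER2* deviated from its own mean by 0.58 on average. *SGK1* was at 35.3, 25.7 and 19.8 CPM in UCP1 KI replicates 1 to 3 and at 98.0, 51.0 and 27.6 CPM in WT replicates 1 to 3, and the 6 pigs stood in the same order for both genes. The next were *FCN2*, at 0.14, and *FSTL1*, at 0.15. Nearest to *CRY1* were *DCLK1*, *COL5A3* and *C1orf43*, at 0.081, 0.084 and 0.086. Since *PER2* and *CRY1* were chosen after their values were seen, lower values of these neighbours in UCP1 KI pigs follow from that choice. Among all genes tested, 7.69% had non-overlapping groups with the UCP1 KI pigs lower, and no test was made of these likenesses.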
